A study of Mus musculus with 4 samples.

Results

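Neutrophil granule proteins are followed here through 10 genes, Ngp, Camp, Ltf, Cd177, Chil3, Mmp8, Mmp9, S100a8, S100a9 and Retnlg, taken by symbol from the 32285 features that each library was counted against. All 10 were found, and all 10 passed the level filter that left 2946 genes measured in neutrophils. The libraries are droplet-based single-cell RNA sequencing of whole spleens from 10-week-old mice, made 4 h after an intravenous injection of 100 µl. There were 4 groups with 1 library each. Mice labelled TRIF-KO received PBS with 9 µg recombinant murine TNF, or PBS alone, and wild-type C57BL/6 mice received PBS with 9 µg TNF, or PBS alone. TRIF (gene Ticam1) relays signals from certain Toll-like receptors, and the design sets its loss against wild-type under TNF, an inflammatory cytokine. The labels name neither the TRIF allele nor the number of mice in a library.

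A neutrophil makes its granules in the bone marrow in a fixed sequence. Primary granule proteins such as myeloperoxidase are made first, proteins of the specific granules follow at the myelocyte stage, and gelatinase and other late products are made in metamyelocytes and band cells. The RNA of the earlier proteins is largely lost on maturation while the protein stays stored, so granule RNA is taken here as a rough guide to the stage of a cell. Ngp, Camp, Ltf, Cd177 and Chil3 are treated here as early members, and Mmp8, Mmp9, S100a8, S100a9 and Retnlg as late members. The grouping is a working label, and S100a8 and S100a9 did not follow it in cells gated as immature, as given below.

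The libraries held 8060 barcodes in TRIF-KO TNF, 6508 in TRIF-KO PBS, 6855 in wild-type TNF and 2683 in wild-type PBS, of which 6606, 5364, 4966 and 2448 were kept in this order. Kept cells of any pair of libraries shared 1 to 10 barcodes. Levels are given as CPM, the UMIs per 1000000 UMIs, here of all kept cells of a library and below of the cell class. Ticam1 was read in all 4 libraries, at 5.79 CPM in TRIF-KO TNF, 8.52 in TRIF-KO PBS, 3.75 in wild-type TNF and 6.88 in wild-type PBS. A tag outside a deleted stretch checks nothing, so the libraries are called by their labels. A UMI, or unique molecular identifier, counts 1 captured RNA molecule. Each group being a single library, differences were not set against any spread between mice. The 95% intervals below cover counting error only and treat UMIs as independent, also where many come from the same cell.

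B cells made up 46.1 to 56.1% of kept cells and T cells 18.6 to 24.2%, as a spleen holds. Cells were gated on 15 neutrophil markers that hold none of the members, such as Csf3r, Cxcr2 and Hdc. The gate took 340 cells of TRIF-KO TNF (5.15% of kept cells), 98 of TRIF-KO PBS (1.83%), 77 of wild-type TNF (1.55%) and 160 of wild-type PBS (6.54%). Their median depth was 7284.5, 2502.5, 4531 and 4277 UMIs in the same order. The summed level of the 15 markers was close in the 4 libraries, at 20412, 21538, 22255 and 22978 CPM in this order, while the 10 B cell markers summed to 74.4, 126, 249 and 111 CPM. Single markers were not level, and shifts in opposite directions offset each other in the sum. Wfdc21 stood at 7404, 1675, 6788 and 2499 CPM and Csf3r at 893, 3672, 789.6 and 2902 CPM. A separate immature gate on 9 markers of granule-forming cells, among them Fcnb, Cebpe and Lcn2, took 14, 4, 4 and 1 cells. Those 9 markers belong to the same granule programme as the early members, so member levels in that gate are a description.

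The clearest difference was in how many neutrophils carried early granule RNA. All of Ngp, Camp and Ltf were found together in 127 of 340 neutrophils of TRIF-KO TNF (37.4%) and in 0 of 98 of TRIF-KO PBS. For 0 of 98 cells the exact 95% upper limit is 3.69%, counting error only. In wild-type they were found together in 29 of 77 neutrophils after TNF (37.7%) and in 3 of 160 after PBS (1.88%). With the immature gate added, the shares were 39.5% (95% exact Clopper-Pearson interval 34.4 to 44.9) in TRIF-KO TNF, 3.92% (1.08 to 9.74) in TRIF-KO PBS, 40.7% (29.9 to 52.2) in wild-type TNF and 2.48% (0.681 to 6.24) in wild-type PBS. The share was thus high in both TNF libraries and low in both PBS libraries under either gate, and close between genotypes.

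**Figure D1:**
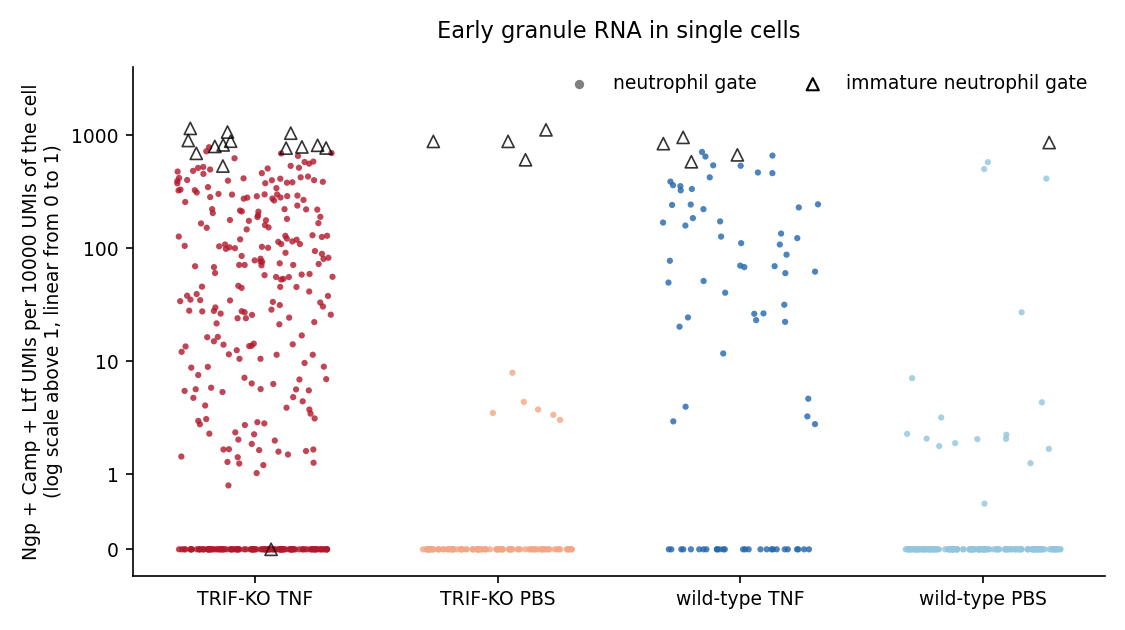
Summed Ngp, Camp and Ltf UMIs per 10000 UMIs of each cell, 1 point per cell, by library and gate. In the TNF libraries neutrophil-gated cells fill the range from 0 to 785 per 10000, while in the PBS libraries most lie at 0 and the immature-gated cells and 3 wild-type neutrophils hold the high values.

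Ngp, Camp and Ltf lie close together on mouse chromosome 9. In GENCODE M21 on GRCm38, Camp (ENSMUSG00000038357) spans chr9:109847379-109849617 on the minus strand. Ngp (ENSMUSG00000032484) lies 570.1 kb further along, at chr9:110419747-110423012 on the plus strand. Ltf (ENSMUSG00000032496) follows after another 596 kb, at chr9:111019271-111042767 on the plus strand. Between Camp and Ltf lie 51 other annotated genes, 28 of them protein-coding. Only 5 of these were measured in neutrophils, and with TNF 1 of the 5 was at least 2-fold higher and 1 lower in TRIF-KO, against 0 higher and 1 lower in wild-type. S100a8 and S100a9 also neighbour each other, 22.6 kb apart on chromosome 3.

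Promoter sequence is shown for these 3 genes because their RNA appeared in the same cells. It was taken from RefSeq promoters of GRCm38.p6, which matched 9 of the 10 members (all but Mmp9), and is cut at the GENCODE start of each gene, read 5′ to 3′ on the gene's own strand. Capitals mark matches, on either strand, to TTGCNNAA, a core bound by C/EBP factors, or to GAGGAA, a core bound by PU.1. The stretches are chr9:110419558-110419746 (plus strand) for Ngp, chr9:109849618-109849706 (minus strand) for Camp and chr9:111019042-111019270 (plus strand) for Ltf.
Ngp: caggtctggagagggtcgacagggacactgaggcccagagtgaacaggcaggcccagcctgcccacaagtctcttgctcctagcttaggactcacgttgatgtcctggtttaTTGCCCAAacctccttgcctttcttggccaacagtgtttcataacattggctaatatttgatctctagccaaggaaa
Camp: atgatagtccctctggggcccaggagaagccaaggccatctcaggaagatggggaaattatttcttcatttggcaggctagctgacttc
Ltf: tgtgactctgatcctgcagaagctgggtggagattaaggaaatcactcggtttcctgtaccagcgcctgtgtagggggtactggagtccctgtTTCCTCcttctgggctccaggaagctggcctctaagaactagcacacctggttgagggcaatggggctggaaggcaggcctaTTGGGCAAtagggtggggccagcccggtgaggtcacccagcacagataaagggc
Over the 250 bases before the RefSeq start, which run past the printed stretches, TTGCNNAA was found in 5 of the 9 members matched (Ngp, Ltf, Mmp8, S100a9 and Retnlg), against 9.56% of 32851 promoters of that length. Ngp held it at 2 places, 138 and 11 bases before that start. GAGGAA was found in 4 of the 9 (Ltf, Mmp8, S100a8 and Cd177), against 23.3% of promoters, and TATAAA in 2 of the 9 (S100a8 and Cd177), against 12.4%. Camp held none of the 3. These matches describe letters in a window and not occupied sites.

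Among the early members, Ngp encodes neutrophilic granule protein, a cystatin-related protein of the specific granules. It had 24595 UMIs in neutrophils of TRIF-KO TNF, 5 in TRIF-KO PBS, 3487 in wild-type TNF and 1034 in wild-type PBS. These sums are 8922, 19.7, 9028 and 1419 CPM in the same order. It was detected in 62.6% (57.3 to 67.8), 4.08% (1.12 to 10.1), 64.9% (53.2 to 75.5) and 10% (5.82 to 15.7) of neutrophils. After thinning every cell to 1000 UMIs, which removes the differences in depth, the shares were 51.8%, 0%, 56% and 4.38%. In B cells, which should lack the gene, the thinned shares were 0.527%, 0.0341%, 0.433% and 0.16%, at median depths of 5615, 3796, 4045 and 5960 UMIs before thinning. The neutrophil shares of both TNF libraries stood far above that level of free RNA, whereas the thinned share of TRIF-KO PBS, 0 of 97 cells, did not.

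Camp encodes the precursor of the antimicrobial peptide cathelicidin. It had 13843 UMIs in TRIF-KO TNF, 2 in TRIF-KO PBS, 2429 in wild-type TNF and 439 in wild-type PBS. It was detected in 51.5%, 2.04%, 54.5% and 2.5% of neutrophils in this order. Ltf, the iron-binding protein lactoferrin, had 4276, 0, 603 and 452 UMIs and was detected in 40.9%, 0%, 37.7% and 1.88% of neutrophils. For both genes the ranges of the TNF and the PBS libraries were well apart in detection, while the wild-type PBS sums were raised by few cells.

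Cd177 encodes a GPI-anchored neutrophil surface glycoprotein and was the early member seen most in the PBS libraries. It was detected in 60% of neutrophils of TRIF-KO TNF (1581 UMIs), 14.3% of TRIF-KO PBS (16 UMIs), 46.8% of wild-type TNF (194 UMIs) and 24.4% of wild-type PBS (129 UMIs). Chil3, the chitinase-like lectin Ym1, was detected in 45.9% (3407 UMIs), 0% (0 UMIs), 32.5% (435 UMIs) and 5% (191 UMIs) of neutrophils in the same order. Its near-identical paralogue Chil4, with which reads could be shared, had 0 UMIs in neutrophils of all 4 libraries.

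**Figure D2:**
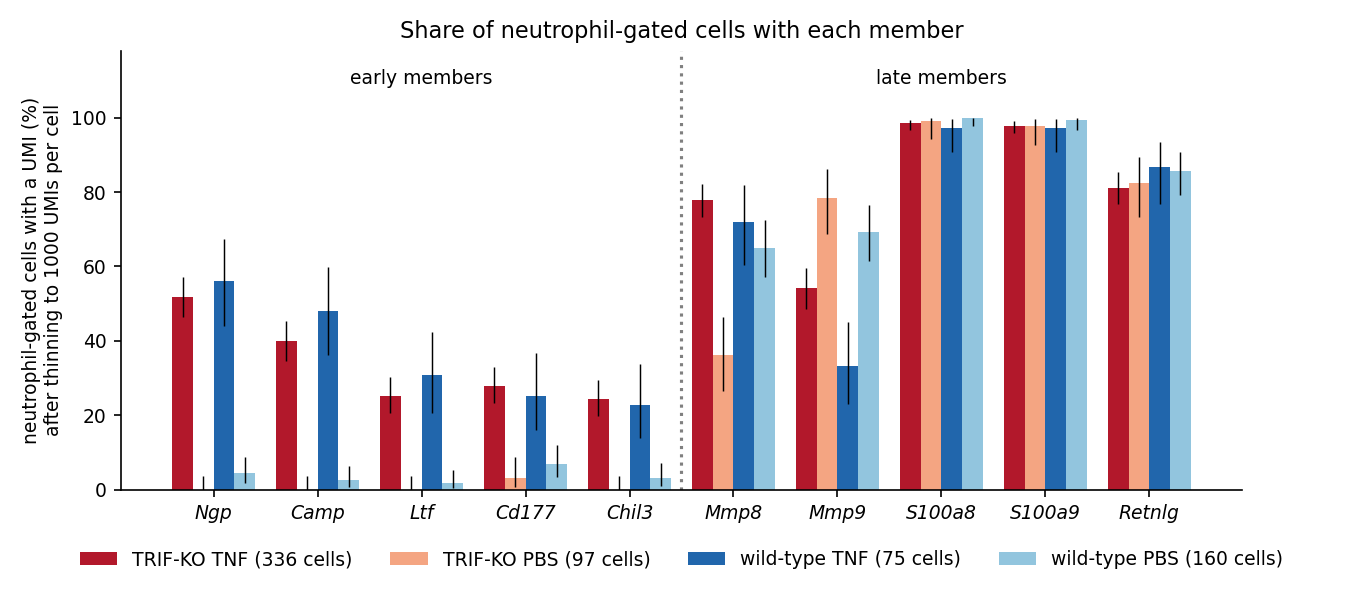
Percent of neutrophil-gated cells with at least 1 UMI of each member after thinning to 1000 UMIs per cell, with exact 95% intervals for counting error. The early members stand at 22.7 to 56% in the TNF libraries and at 0 to 6.88% in the PBS libraries, whereas S100a8 and S100a9 are above 97% everywhere.

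The sums behind the early members rested on a different number of cells in each library. The cell with most Ngp UMIs held 3.11% of the Ngp of TRIF-KO TNF neutrophils, 40% of that of TRIF-KO PBS, 11% of that of wild-type TNF and 40.6% of that of wild-type PBS. For Camp these shares were 4.59%, 50%, 10.7% and 39.6%, and for Chil3 in the libraries with UMIs they were 6.84% in TRIF-KO TNF, 13.3% in wild-type TNF and 51.8% in wild-type PBS. The 5 neutrophils with most Ngp, Camp and Ltf held 14.7% of these UMIs in TRIF-KO TNF, 85.7% in TRIF-KO PBS, 43.8% in wild-type TNF and 99.3% in wild-type PBS. Over 100 such UMIs were carried by 92 of 340 neutrophils in TRIF-KO TNF and 0 of 98 in TRIF-KO PBS, and by 18 of 77 in wild-type TNF and 3 of 160 in wild-type PBS. In TRIF-KO PBS the neutrophils held only 7 of these UMIs, so the high shares there follow from the low count and show no concentration. The share of the top 5 cells also depends on the number of cells gated. By the cells over 100 UMIs, the early RNA was spread over many neutrophils in both TNF libraries and held by 3 in wild-type PBS.

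Summed levels of the early members depended on the gate, unlike the shares of cells. In the neutrophil gate, Ngp was 454-fold higher (194 to 1398) with TNF than with PBS in TRIF-KO, and 6.36-fold higher (5.93 to 6.82) in wild-type. Camp was 639-fold higher (177 to 5275) against 2 UMIs in TRIF-KO and 10.4-fold higher (9.42 to 11.6) in wild-type. Ltf was at least 132-fold and Chil3 at least 105-fold higher in TRIF-KO, against a floor of 3 UMIs in the PBS library, and 2.52-fold (2.22 to 2.85) and 4.3-fold (3.62 to 5.12) higher in wild-type. Cd177 was 9.12-fold (5.6 to 16) and 2.84-fold (2.26 to 3.57) higher.

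With the immature gate added, the same ratios in TRIF-KO were 1.47-fold for Ngp, 1.04-fold for Camp, 1.12-fold for Ltf, 1.09-fold for Chil3 and 2.02-fold for Cd177. In wild-type they were 4.45-fold, 5.07-fold, 2.15-fold, 3.94-fold and 2.85-fold for the same genes. The 4 immature-gated cells of TRIF-KO PBS held 99.2% of all Ngp, 99.3% of all Camp and 99.4% of all Ltf UMIs of kept cells of that library. So the sum of Ngp in TRIF-KO PBS was 5 UMIs over 98 cells without these 4 cells and 2436 over 102 with them. With each cell of the joint gate given equal weight, a choice made after the data were seen, the log2 ratios in TRIF-KO were 2.13 for Ngp, 1.58 for Camp, 1.55 for Ltf, 1.62 for Chil3 and 2.09 for Cd177. The direction with TNF was upward for all 5 early members in both genotypes and under both gates, but for Camp in TRIF-KO under the joint gate the interval of the log2 ratio, -0.01 to 0.11, includes 0.

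**Figure D3:**
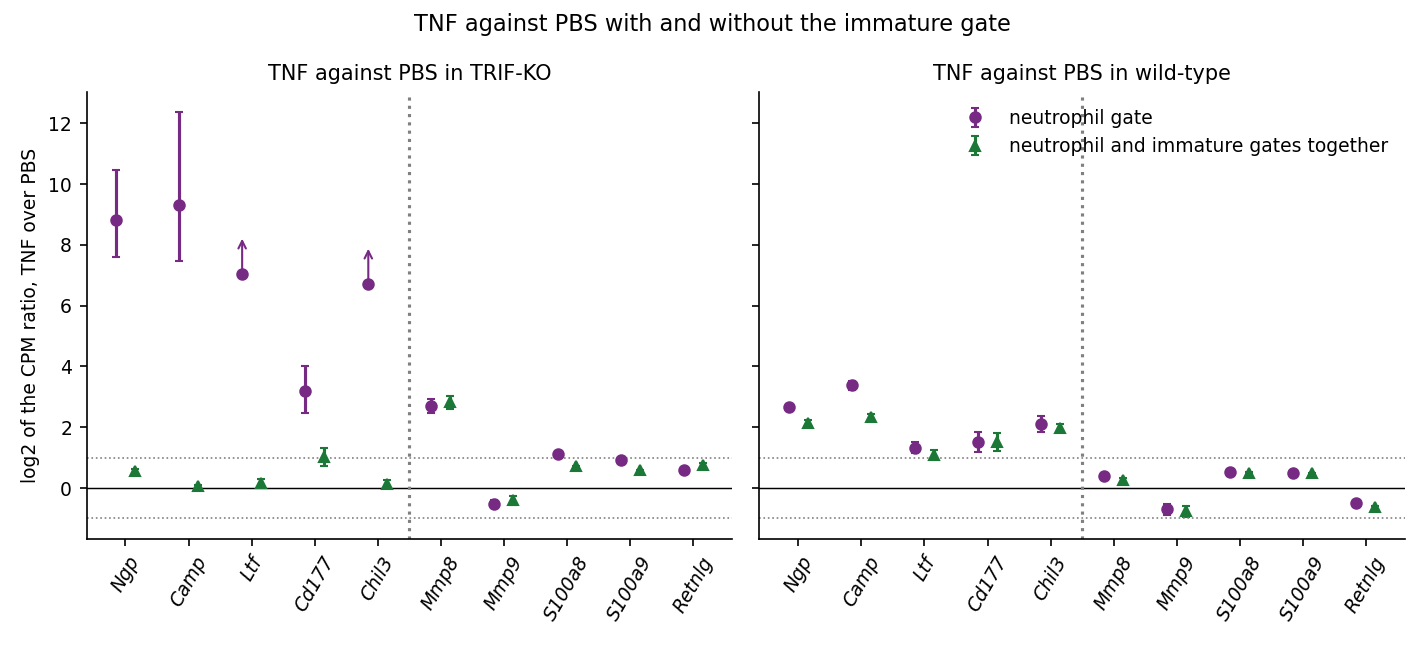
Log2 ratio of CPM, TNF over PBS, for each member in TRIF-KO (left) and wild-type (right), in the neutrophil gate (circles) and with the immature gate added (triangles), bars being counting intervals, arrows lower bounds and dotted horizontal lines 2-fold. The early members of TRIF-KO move most between gates (Camp 9.32 and 0.05), and the late members little.

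Counted over the members in the neutrophil gate, 7 of 10 were at least 2-fold higher with TNF in TRIF-KO, where 9.64% of the 2946 measured genes were, and 5 of 10 in wild-type, where 11.5% were. No member was at least 2-fold lower with TNF, against 27.2% of measured genes in TRIF-KO and 27.8% in wild-type. The median log2 ratio of the members was 2.94 in TRIF-KO and 0.93 in wild-type, beside -0.48 and -0.41 over all measured genes. Median-of-ratios scaling, which sets the middle gene near 0, raised every log2 ratio of TNF to PBS by 0.53 in TRIF-KO and by 0.29 in wild-type. Under it 9 of 10 members were at least 2-fold higher in TRIF-KO (16.7% of genes higher, 10.8% lower) and 5 of 10 in wild-type (15.6% higher, 20.2% lower). With the immature gate added, 2 of 10 members (Mmp8 and Cd177) were at least 2-fold higher with TNF in TRIF-KO and 5 of 10 (the early members) in wild-type. No share over all genes is given for that joint gate, so these counts have no background beside them.

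Late members were on in neutrophils of every library. S100a8 and S100a9 encode the subunits of calprotectin, a calcium- and zinc-binding protein that fills the neutrophil cytosol. S100a8 had 368949 UMIs in TRIF-KO TNF, 15729 in TRIF-KO PBS, 40675 in wild-type TNF and 52948 in wild-type PBS, or 133838, 61831, 105306 and 72674 CPM. S100a9 stood at 154536, 82017, 131097 and 92511 CPM in this order. The pair made up 28.8% of all neutrophil UMIs in TRIF-KO TNF, 14.4% in TRIF-KO PBS, 23.6% in wild-type TNF and 16.5% in wild-type PBS. Within cells the median share of the pair was 27.7%, 13.5%, 23.2% and 14.2%. Both TNF libraries thus lay above both PBS libraries, with log2 ratios of 1.11 for S100a8 and 0.91 for S100a9 in TRIF-KO, and 0.54 and 0.50 in wild-type. The ratio of S100a9 to S100a8 UMIs kept between 1.15 and 1.33 in the 4 libraries.

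Mmp8, the neutrophil collagenase, was the late member that differed most. It had 4109.6 CPM in TRIF-KO TNF, 637 in TRIF-KO PBS, 4311 in wild-type TNF and 3279 in wild-type PBS. TRIF-KO PBS alone was low, and the other 3 libraries lay within 1.31-fold of each other. The thinned share of neutrophils with Mmp8 was 78%, 36.1%, 72% and 65%, in which TRIF-KO PBS was again the lowest. With TNF, Mmp8 was 6.45-fold higher (5.53 to 7.58) in TRIF-KO and 1.31-fold higher (1.23 to 1.4) in wild-type. The ratio in TRIF-KO was 7.04-fold with the immature gate added, which is as large as without those cells.

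Mmp9, gelatinase B of the tertiary granules, was highest in the PBS libraries. It had 1223 CPM in TRIF-KO TNF, 1761 in TRIF-KO PBS, 839 in wild-type TNF and 1356 in wild-type PBS, and its thinned share of neutrophils was 54.2%, 78.4%, 33.3% and 69.4%. It was lower with TNF in both genotypes, at 0.695-fold (0.629 to 0.768) in TRIF-KO and 0.619-fold (0.544 to 0.702) in wild-type, both within 2-fold, but under median-of-ratios scaling its log2 ratio was 0.01 in TRIF-KO and -0.41 in wild-type. Retnlg, the secreted resistin-like molecule gamma, had 9553 CPM in TRIF-KO TNF, 6345 in TRIF-KO PBS, 7938 in wild-type TNF and 11152 in wild-type PBS. Its ratio of TNF to PBS was 1.51-fold (1.43 to 1.58) in TRIF-KO and 0.712-fold (0.683 to 0.742) in wild-type. The genotypes lay on opposite sides of 1, also under median-of-ratios scaling, where the log2 ratios were 1.12 in TRIF-KO and -0.20 in wild-type.

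Between the genotypes after TNF, no member was 2-fold different, while 7.06% of measured genes were at least 2-fold higher and 4.85% lower in TRIF-KO. The log2 ratios of TRIF-KO to wild-type ran from -0.32 for Camp to 0.54 for Mmp9. Ngp stood at -0.02 (-0.07 to 0.03), Ltf at -0.01 (-0.13 to 0.12) and Chil3 at 0.13 (-0.01 to 0.28). After PBS, 6 of 10 members were at least 2-fold lower in TRIF-KO, where 7.77% of measured genes were, and none was 2-fold higher, where 7.40% were. Under median-of-ratios scaling 4.63% of genes were higher and 10.6% lower after PBS, with the same count of 6 members lower. These 6 were the 5 early members and Mmp8 (log2 -2.36, -2.60 to -2.13), but Cd177 (-1.49) was within 2-fold with each cell weighted equally (-0.83) and after thinning (-0.96). With the immature gate added, Ngp (log2 1.45), Camp (1.92) and Chil3 (1.39) were instead at least 2-fold higher in TRIF-KO PBS than in wild-type PBS, while Mmp8 (-2.56) and Retnlg (-1.05) were lower. For that joint gate no share over all genes is given. Mmp8 is the member that was lower in TRIF-KO PBS under both gates by more than 2-fold.

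The difference between the TNF responses, the log2 ratio in TRIF-KO minus that in wild-type, was 6.02 (4.81 to 7.23) for Ngp and 5.61 (3.82 to 7.41) for Camp in the neutrophil gate. With the immature gate added it was -1.60 for Ngp and -2.29 for Camp. For Mmp8 it was 2.29 (2.05 to 2.53) and, with the immature gate, 2.56, and for Retnlg 1.08 (0.99 to 1.17) and 1.40. S100a8 had 0.58 and 0.21, and S100a9 0.41 and 0.10. Of the 8 members with UMIs in all libraries, Mmp8 and Retnlg had a difference above 1 under both gates. None of these differences was tested.

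Within the TNF libraries the neutrophils were mixed, and the members marked out the mixture. Of 340 TRIF-KO TNF neutrophils, 114 had no Ngp, Camp or Ltf UMI, 99 had 1 or 2 of these genes and 127 had all 3. Of 77 wild-type TNF neutrophils the numbers were 27, 21 and 29. Median depth moved with this grouping, at 4514.5, 7355 and 10321 UMIs in TRIF-KO TNF and 3350, 4525 and 5948 in wild-type TNF, and its part in the pattern was not tested. Chil3 stood at 39.3 CPM in cells with none, 135 in cells with 1 or 2 and 2223 in cells with all 3 in TRIF-KO TNF, and at 30.5, 0 and 2299.7 CPM in wild-type TNF. Cd177 stood at 35.8, 329.9 and 895 CPM in TRIF-KO TNF and at 10.2, 219.9 and 910.3 in wild-type TNF.

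Late members were also higher in the cells with early RNA. Mmp8 stood at 1506, 4099.8 and 5099 CPM in TRIF-KO TNF and Mmp9 at 297, 1199 and 1585, in cells with none, with 1 or 2 and with all 3 of the early genes. Retnlg peaked in the middle group in both TNF libraries, at 3644, 13339 and 9948 CPM in TRIF-KO TNF and 3304, 10496 and 9002 in wild-type TNF. Genes of mature or activated neutrophils ran the other way. Csf3r, the receptor for granulocyte colony-stimulating factor and a marker of the gate, stood at 1819, 1093 and 447 CPM in TRIF-KO TNF and at 1301, 819.7 and 506 in wild-type TNF. Il1b, the inflammatory cytokine interleukin 1 beta, stood at 4612, 2408 and 539 CPM and at 5794, 4928 and 1602. Cxcr4, a retention receptor of marrow and of aged neutrophils, stood at 286, 68.2 and 41.9 CPM and at 274, 70 and 26.6.

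**Figure D4:**
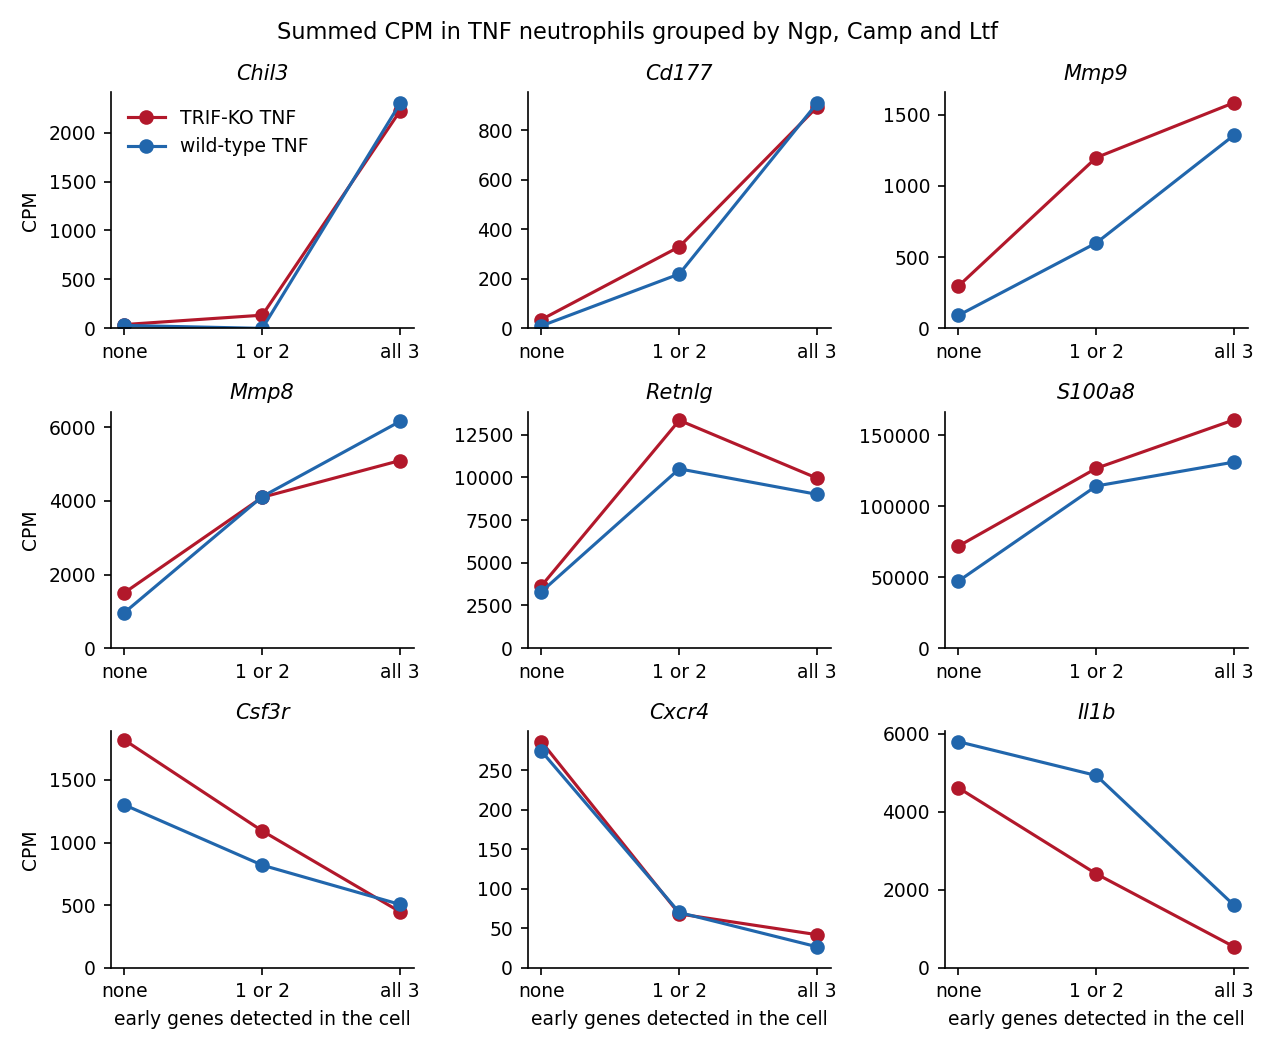
Summed CPM of 9 genes in TNF neutrophils with none, 1 or 2, or all 3 of Ngp, Camp and Ltf, 1 line per library. The other members lie lowest in cells with none, except Chil3 in wild-type TNF (30.5 CPM with none, 0 with 1 or 2), Retnlg peaks in the middle group, and Csf3r, Cxcr4 and Il1b lie highest in cells with none.

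Across single cells the early members moved with each other more than with the late ones. The correlation of each member with the mean of Ngp, Camp and Ltf in the same cell, on log2 values of 1 + UMIs per 10000 and leaving the gene itself out of the mean, is given as a description because cells of 1 library share depth and source. In the 340 TRIF-KO TNF neutrophils Pearson's r was 0.81 to 0.92 for the early members, and 0.53 for Mmp8, 0.63 for Mmp9, 0.45 for S100a8, 0.40 for S100a9 and 0.35 for Retnlg. In the 77 wild-type TNF neutrophils it was 0.78 to 0.94 for the early members and 0.38 to 0.76 for the late ones. The genes outside the members most like Ngp, Camp and Ltf, ranked by their lowest r over the 3 libraries other than TRIF-KO PBS among genes found in at least 10% of neutrophils, were Syne1 (0.53), Adpgk (0.47), Cybb (0.44), Rab3d (0.36) and Cmah (0.34). Of these, Cybb encodes the heavy chain of the phagocyte oxidase, a membrane protein of specific granules.

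The immature gate held cells with most early RNA of all. Ngp stood there at 36167 CPM in TRIF-KO TNF (14 cells), 39946 in TRIF-KO PBS (4 cells), 34055 in wild-type TNF (4 cells) and 36965 in wild-type PBS (1 cell). Camp stood at 40812, 40981, 36777 and 38299.9 CPM, and Chil3 at 12898, 10779, 15242 and 13679. These levels were close in all 4 libraries. Mmp8 was low there, at 338, 115, 283 and 33.4 CPM, as was Retnlg at 539, 362, 283 and 200.2 CPM, whereas S100a8 stood at 183851, 177777, 126453 and 163575 CPM. S100a9 stood at 204274, 208439, 149136 and 180723 CPM. S100a8 and S100a9 were thus higher there than in the neutrophil gate in all 4 libraries, unlike Mmp8, Mmp9 and Retnlg. The proliferation genes Mki67 and Top2a had 112 and 115 UMIs in the 14 cells of TRIF-KO TNF, 31 and 20 in the 4 of TRIF-KO PBS, 33 and 31 in the 4 of wild-type TNF, and 33 and 46 in the 1 of wild-type PBS. Only some cells carried them. Mki67 was found in 7, 2, 2 and 1 cells and Top2a in 3, 1, 2 and 1, in this order. Mpo and Elane, made at the earlier promyelocyte stage, had 0 UMIs in all 23 of these cells. Most of them also carried many mature markers, with medians of 11, 10, 10.5 and 9 of 15. They were deeper than the neutrophil gate, with median depths of 21777.5, 15724.5, 15451 and 29974 UMIs.

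Other granule genes were counted by their lists. Of 14 primary granule genes 2 were measured in neutrophils, and Serpinb1a, an inhibitor of neutrophil serine proteases, was 26.1-fold higher (log2 4.70, 3.15 to 6.98) with TNF in TRIF-KO, against 3 UMIs, and 2.88-fold higher in wild-type. Of 13 other specific granule genes 11 were measured. With TNF, 4 were at least 2-fold higher in TRIF-KO and 3 in wild-type, none was lower, and 7 and 8 were neither. Over all measured genes 9.64% were higher and 27.2% lower in TRIF-KO, and 11.5% and 27.8% in wild-type. Under median-of-ratios scaling 8 were higher in TRIF-KO and 4 in wild-type. Lcn2 (the siderophore-binding lipocalin 2) and Itgb2l (a leukocyte integrin beta chain) are also markers of the immature gate. Lcn2 stood at 12351 CPM in TRIF-KO TNF, 1093 in TRIF-KO PBS, 11337 in wild-type TNF and 2650.4 in wild-type PBS. Cybb stood at 1926, 31.4, 2539.8 and 291 CPM in this order, and Itgb2l at 226, 7.86, 287 and 22. In neutrophils with no Ngp, Camp or Ltf UMI, Lcn2 stood at 9683, 1031, 7451 and 1854 CPM in the same order. Lcn2 was thus higher with TNF also in cells without that early RNA.

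Of 16 gelatinase granule and secretory vesicle genes 13 were measured. With TNF, 4 were at least 2-fold higher and 4 lower in TRIF-KO, and 4 higher and 2 lower in wild-type. Beside them, 27.2% of all measured genes were lower in TRIF-KO and 27.8% in wild-type, and 9.64% and 11.5% higher. Under median-of-ratios scaling 4 were higher and 0 lower in TRIF-KO, and 4 higher and 2 lower in wild-type. The 4 higher in both were Cd14, the lipopolysaccharide co-receptor, the formyl peptide receptor genes Fpr1 and Fpr2, and Mmp25, a membrane-anchored metalloproteinase. Of 11 mature surface and egress genes all were measured, with 2 higher and 3 lower in TRIF-KO and 1 higher and 6 lower in wild-type. The 3 of 11 lower in TRIF-KO lie near the share over all measured genes. Median-of-ratios scaling left 2 lower in TRIF-KO and 5 in wild-type. Csf3r and Il1r2 of this list, like Fpr1 above, are also markers of the neutrophil gate. Csf3r stood at 893 CPM in TRIF-KO TNF, 3672 in TRIF-KO PBS, 789.6 in wild-type TNF and 2902 in wild-type PBS. Il1r2, the decoy receptor for interleukin 1, stood at 1476, 228, 2299 and 852 CPM.

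Of 11 granulocyte transcription factors 6 were measured, with 2 higher and 3 lower in TRIF-KO and 1 higher and 2 lower in wild-type. Of all measured genes, 9.64% were higher and 27.2% lower in TRIF-KO, and 11.5% and 27.8% in wild-type. Under median-of-ratios scaling the counts were 2 and 2 in either genotype. Cebpb, the C/EBP factor of emergency granulopoiesis, stood at 2128 CPM in TRIF-KO TNF, 916 in TRIF-KO PBS, 2651 in wild-type TNF and 1183 in wild-type PBS. Cebpe, the C/EBP factor that drives specific granule genes, was too low to be measured in the neutrophil gate, with 47, 7, 0 and 13 UMIs in the 4 libraries in this order. Of 10 genes of metalloproteinase inhibitors and S100 partners 4 were measured, and Timp2 (log2 -1.38 in TRIF-KO and -2.23 in wild-type) and S100a11 (-1.24 and -1.13) were at least 2-fold lower with TNF. Under median-of-ratios scaling Timp2 stood at -0.85 in TRIF-KO and -1.94 in wild-type and S100a11 at -0.71 and -0.84, so that only Timp2 in wild-type was past 2-fold. Of 12 cell cycle genes only Hmgb2 was measured, with a log2 ratio in wild-type of -1.04, or -0.75 under median-of-ratios scaling.

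Outside neutrophils the members were of 2 kinds. Chil3, Mmp8 and Cd177 were read in monocytes, gated on markers such as Csf1r and Ly6c2 (84 cells in TRIF-KO TNF, 123 in TRIF-KO PBS, 49 in wild-type TNF and 83 in wild-type PBS). Chil3, which mouse monocytes are known to express, stood there at 968, 815, 232 and 1524 CPM and was found in 51.2%, 46.3%, 40.8% and 53% of cells, no cell holding more than 24.4% of a library's monocyte sum. Its ratio of TNF to PBS was 1.19-fold in TRIF-KO (log2 0.25, 0.13 to 0.37), while wild-type TNF was the lowest of the 4 libraries. Mmp8 stood at 70, 170.0, 17.6 and 448 CPM in monocytes, where both TNF libraries lay below both PBS libraries. Cd177 stood at 13.6, 93.1, 41 and 74.4 CPM, also with both TNF libraries below both PBS libraries, but with the genotypes in the opposite order. Mmp8 in monocytes was lower with TNF, at 0.412-fold in TRIF-KO and 0.0392-fold in wild-type (log2 -4.67, -5.81 to -3.74). The wild-type ratio rests on 9 UMIs in 5 of the 49 wild-type TNF monocytes, 1 cell holding 44.4%. In neutrophils Mmp8 was higher with TNF, at log2 2.69 in TRIF-KO but only 0.39 in wild-type.

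Ngp, Camp, Ltf, Mmp9 and Retnlg were near the floor in monocytes, at 0 to 11 UMIs per library. S100a8 in monocytes stood at 1031, 116, 732 and 274 CPM, but 1 cell held 48.2%, 95.6%, 34.7% and 76.7% of these sums. For S100a9, 1 cell held 97.8% in TRIF-KO PBS, 88.8% in wild-type TNF and 66.7% in wild-type PBS. In TRIF-KO TNF it held 13.6%, with S100a9 found in 65.5% of monocytes, but also in 64.5% of dendritic-gated cells and 52.1% of T cells. After thinning, S100a9 was found in 9.52% of monocytes and 9.81% of B cells of that library. The TRIF-KO TNF level of S100a9 in monocytes was thus not told apart from free RNA. Comparisons of these monocyte sums between libraries thus rest largely on single cells.

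**Figure D5:**
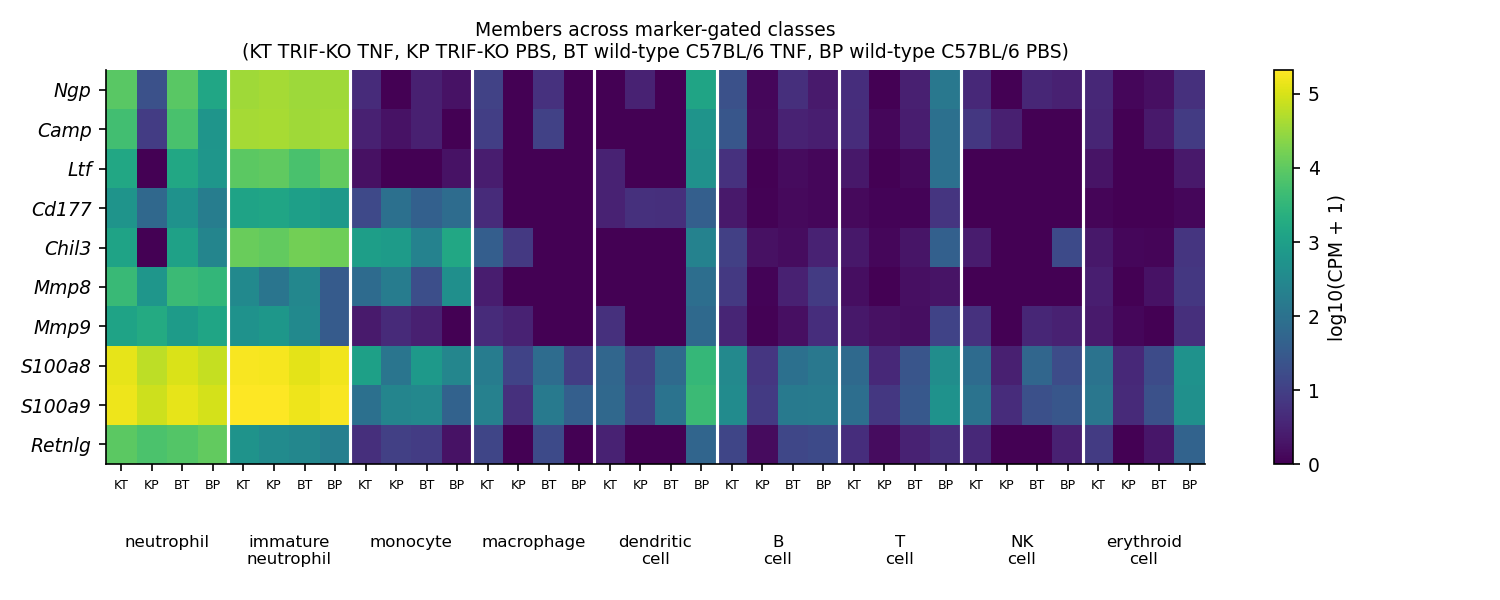
Level of each member, as log10 of CPM plus 1, in 9 marker-gated classes and the 4 libraries. Late members are bright in the neutrophil gate of all 4 libraries and early members in the immature gate, while the early members are dark in TRIF-KO PBS neutrophils (Ltf and Chil3 at 0 CPM). Mmp8 and Retnlg are dimmer in the immature gate than in the neutrophil gate, Chil3 is also bright in monocytes, and the bright wild-type PBS columns of dendritic and T cells come from 1 cell each.

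In lymphocytes the members were read thinly or from single cells. S100a8 was detected in 39.3% of B cells of TRIF-KO TNF, 2.51% of TRIF-KO PBS, 14.9% of wild-type TNF and 10.7% of wild-type PBS, and after thinning in 8.56%, 0.956%, 4.08% and 2.16%. All kept cells of these libraries held 436066, 26842, 51473 and 65968 S100a8 UMIs, and TRIF-KO TNF was the highest and TRIF-KO PBS the lowest on every one of these measures. Outside the neutrophil gates, 6 kept cells carried over 100 UMIs of Ngp, Camp and Ltf with 10 or 11 of the 15 neutrophil markers. Of these, 3 cells of TRIF-KO TNF had no class. A B-gated cell of TRIF-KO TNF with 10 of 10 B cell markers held 314 of the 412 Ngp UMIs of its class. In wild-type PBS 1 dendritic-gated cell held 844 and 1 T-gated cell 616 Ngp UMIs, together more than the 1034 of all its neutrophils. These 3 cells carry markers of 2 classes and 23194 to 41757 UMIs each, and none was removed by the doublet filter.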

How the data were processed

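The deposited files hold whole-number UMI counts per gene and droplet barcode, made by the authors with Cell Ranger (3.0 per the submitters' processing notes, 6.0.1 per the file headers). The notes also name Seurat 4.1.1, for which no values were used here. No source used here gives the genome build of the counting. The lowest barcode totals were 500 to 503 UMIs.

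Droplets under 200 detected genes or over 10% mitochondrial UMIs were dropped, and the highest Scrublet scores (Scanpy 1.11.5), 0.8% per 1000 deposited barcodes, were removed as doublets, 455 in TRIF-KO TNF, 295 in TRIF-KO PBS, 288 in wild-type TNF and 54 in wild-type PBS. A cell took the class whose marker list it held the largest share of, with at least 3 markers and no tie. UMIs were summed per class and library and given as CPM. Ratios have exact conditional binomial intervals, levels exact Poisson intervals and shares exact Clopper-Pearson intervals, all at 95%. A gene was measured in neutrophils with at least 100 UMIs over the 4 libraries, 50 CPM in at least 1, and no other class at over 20 times its level. The floor against 0 was 3 UMIs per library. Differences of responses used 0.5 added to each count. The calculations were tested on simulated counts.

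All members were named, with up to 4 genes per list and comparison among those 2-fold different, by the interval bound farthest from 1, and others where a count called for them. Il1b, Cxcr4 and Csf3r in the split by early RNA were chosen for their roles. The members, marker lists and gene lists were chosen with earlier results of these data known. Alternatives varied the filters, gate, scaling, weighting and depth. Median-of-ratios scaling of the gene lists was added after seeing the data. The libraries are single and carry no replicate number, so no replicate was left out.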

Additional observations from a re-analysis of the deposited data

Results flagged for a closer look

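For 3 readouts the TNF library lay above the PBS library in one genotype and below it in the other. With 1 library per group the difference between the genotypes was not tested.

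Retnlg in neutrophils had 9553 CPM in TRIF-KO TNF and 6345 in TRIF-KO PBS, against 7938 in wild-type TNF and 11152 in wild-type PBS, a difference of 1.08 in log2 ratio between TRIF-KO and wild-type. Chil3 in monocytes had 968 CPM in TRIF-KO TNF and 815 in TRIF-KO PBS, against 232 in wild-type TNF and 1524 in wild-type PBS, a difference of 2.96. S100a9 in monocytes had 89.3 CPM in TRIF-KO TNF and 267 in TRIF-KO PBS, against 297 in wild-type TNF and 47.1 in wild-type PBS, a difference of -4.22. In the last, 1 cell held 13.6%, 97.8%, 88.8% and 66.7% of the UMIs in the same order. Its TRIF-KO TNF level lay near those of T cells (81 CPM) and erythroid cells (125 CPM) of that library, so it was not told apart from free RNA.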

How the results depend on the processing

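The 7 members at least 2-fold higher with TNF in TRIF-KO and the 5 in wild-type stayed so under looser or stricter filters, without doublet removal, with the stricter marker gate, under 3 other scalings, with equal weight per cell, without each gene's top cell and after thinning. Taking neutrophils as clusters, or adding the immature gate, left 2 in TRIF-KO, and 4 and 5 in wild-type (Ltf being lost with clusters). No share over all genes is given for these 2 settings. The 4 cells that the immature gate adds in TRIF-KO PBS hold 99.2% of its Ngp. S100a8 in TRIF-KO was lost as well, and the cause was not tested. After thinning, 1 member (Mmp9) was at least 2-fold lower with TNF in wild-type.

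Of the 6 members lower in TRIF-KO PBS than in wild-type PBS, 5 stayed at least 2-fold lower with each cell weighted equally and after thinning, Cd177 being lost. Between TRIF-KO PBS and wild-type PBS the signs of the 5 early members turned with the gate. With clusters, 3 members were at least 2-fold higher and 1 lower, and the log2 ratios were 1.51 for Ngp, 2.23 for Camp, 0.61 for Ltf, 0.24 for Cd177 and 1.75 for Chil3. With both gates together, 3 were higher and 2 lower, at 1.45, 1.92, 0.96, 0.65 and 1.39 for the same genes. With both gates and equal weight per cell, chosen after seeing the data, 3 were higher and 1 lower, at 1.05, 1.67, 0.56, 0.02 and 1.07. These counts, too, have no share over all genes beside them. The difference between the TNF responses was -1.38, -1.60 and -1.30 for Ngp and -2.13, -2.29 and -2.14 for Camp under these 3 settings, and -0.02 for Cd177 with clusters and -0.50 with both gates.

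Over all genes with at least 1 UMI, 4.93% were at least 2-fold higher with TNF in TRIF-KO and 9.21% in wild-type, and 33.8% and 14.7% lower. Between genotypes 5.99% were higher after TNF and 14% after PBS, and 19.5% and 5.22% lower.

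No paired analysis was possible because each group is 1 library. CPM without the members in the total added 1 member past 2-fold in TRIF-KO (S100a9, log2 1.23), and median-of-ratios scaling added S100a9 (1.45) and Retnlg (1.12). Early RNA in TRIF-KO PBS rests on 98 neutrophils at a median of 2502.5 UMIs, so low levels there were not detectable at this depth.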
